A study of Mus musculus with 20 samples.

Results

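The genes described here are the MHC class II presentation genes of the mouse: H2-Aa, H2-Ab1, H2-Eb1, H2-DMa, H2-DMb1, H2-Oa, Cd74 and Ciita, 8 genes named by symbol. A gene was measured where the array's annotation gives a row that symbol and no other, which left 7 of the 8 among 30142 genes. The only row of Cd74 is shared in the annotation with the microRNA gene Mir5107, so its values are given apart and are not assigned to Cd74. RNA from bladders and metastases of FVB/N mice was measured on 20 Affymetrix whole-transcript arrays, and the levels below are the authors' log2 values. The files do not state the base of the logarithm, and it was taken to be 2, the base RMA uses.

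All mice of the study were CKO mice, which carry floxed alleles, Rbf/f among them, and are p107-/-, so the normal bladders share that genotype. Normal bladder is 5 arrays from mice with no inoculation in their labels. Tumour bladder is 7 arrays from bladders inoculated with an adenovirus coding for Cre recombinase, which deletes floxed alleles in the cells it reaches. Treated bladder is 3 arrays from inoculated bladders of mice given palbociclib, an inhibitor of the kinases Cdk4 and Cdk6, at 150 mg/kg a day for 28 days and CDDP (cisplatin) at 6 mg/kg in 1 dose a week. Metastasis is 4 arrays, whose organ is not given in the labels. A further array is a metastasis with the title PALBO-MET, called the palbo metastasis here, and its labels give no dose. The labels give no promoter or cell type for the virus's Cre, no age of the mice and no strain other than FVB/N. Nothing says whether arrays of a group come from separate mice, so p-values measure only the spread between these arrays, which may be technical.

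Class II molecules are pairs of an alpha and a beta chain that show peptides from engulfed protein to helper T cells. Dendritic cells, B cells and activated macrophages carry them at high levels, and many other cells can make them under interferon-gamma. The pair is built around the invariant chain Cd74, the H2-M molecule (H2-DMa with H2-DMb1) trades the last piece of that chain for a peptide, and H2-O (H2-Oa with H2-Ob) restrains H2-M. Ciita is the transactivator that switches these genes on through the X and Y boxes, short motifs before their start sites that are bound by RFX and NF-Y. Bulk tissue was measured, so fewer cells that carry class II and less RNA per cell cannot be told apart.

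From the RefSeq promoter table for GRCm38.p6, 6 promoters of 5 of the 8 genes were used, all on chromosome 17. The genes are H2-Oa, H2-DMa, H2-DMb1, H2-Aa and H2-Eb1. The search for the members left out another chromosome, so Cd74 was not covered and is missing from the counts below. The table held no promoter of H2-Ab1 or Ciita. Each promoter covers 250 bases before the start site and 50 after it. They are shown because the X and Y boxes are what these genes are known to share. The Y box letters TGATTGG stood before the start of 4 of the genes. The 4 stretches below run 5′ to 3′ on the gene's own strand, each 74 bases, with TGATTGG and the X box core AACNGATG in capitals.
H2-Aa, chr17:34287855-34287928, minus strand: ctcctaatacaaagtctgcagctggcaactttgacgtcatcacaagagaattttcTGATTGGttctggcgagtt
H2-Eb1, chr17:34305751-34305824, plus strand: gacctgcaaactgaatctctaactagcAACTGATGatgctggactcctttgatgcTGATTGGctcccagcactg
H2-DMb1, chr17:34153073-34153146, plus strand: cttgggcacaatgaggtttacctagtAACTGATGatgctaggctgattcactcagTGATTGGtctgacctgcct
H2-Oa, chr17:34092279-34092352, plus strand: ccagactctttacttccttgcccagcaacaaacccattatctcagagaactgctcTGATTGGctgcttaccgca

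The Y box ended 44 bases before the start site of H2-Aa, 55 before that of H2-Eb1, 57 before that of H2-DMb1 and 39 before that of H2-Oa. TGATTGG, chosen after the sequences were seen and searched on both strands, stood in 2568 of 32851 promoters of this length, or 7.82%. Its shorter form ATTGG, which every TGATTGG contains, stood in 5 of the 6 promoters of these genes and in 37.4% of all promoters. The X box core AACNGATG stood in those of H2-DMb1 and H2-Eb1 and in 2.32% of all promoters. An X box core followed by ATTGG 10 to 35 bases later on the same strand was found in 10 promoters of the table, or 0.0304%, those of H2-DMb1 and H2-Eb1 among them. These matches describe the letters of the reference genome only, and the array data hold no measure of binding.

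A set of 8 arrays stood apart from the other 12 and came from 3 groups. Of the metastases they held 3 and 4, of the tumour bladders 3, 4 and 5, and of the normal bladders 4, 5 and 6. On them the values of dim rows spread more widely (SD of 0.37 to 0.39, against 0.27 to 0.36) and none of them correlated with another array above 0.21 over bright rows. The labels name no batch. All treated bladders and the palbo metastasis lie outside the set. In all 5 group comparisons no gene of the 30142 passed limma's test at a Benjamini-Hochberg adjusted p under 0.05. The number of arrays limits the precision.

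The urothelial marker list, 10 genes with Upk1b and Upk1a as its brightest, checks the labelled tissue. Its mean level was 6.87 to 8.45 on the normal bladders, 5.52 to 9.61 on the tumour bladders, 7.31 to 8.51 on the treated bladders, 5.54 to 6.89 on the metastases and 5.06 on the palbo metastasis. Urothelial markers were thus lowest on the palbo metastasis, on tumour bladder 6 and on metastasis 1. On the 8 arrays that stood apart, the list did not tell the labelled tissues apart. There it was 6.865, 7.008 and 6.888 on normal bladders 4, 5 and 6 and 6.914, 6.866 and 6.987 on tumour bladders 3, 4 and 5. Metastases 3 and 4 had 6.894 and 6.885.

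**Figure D1:**
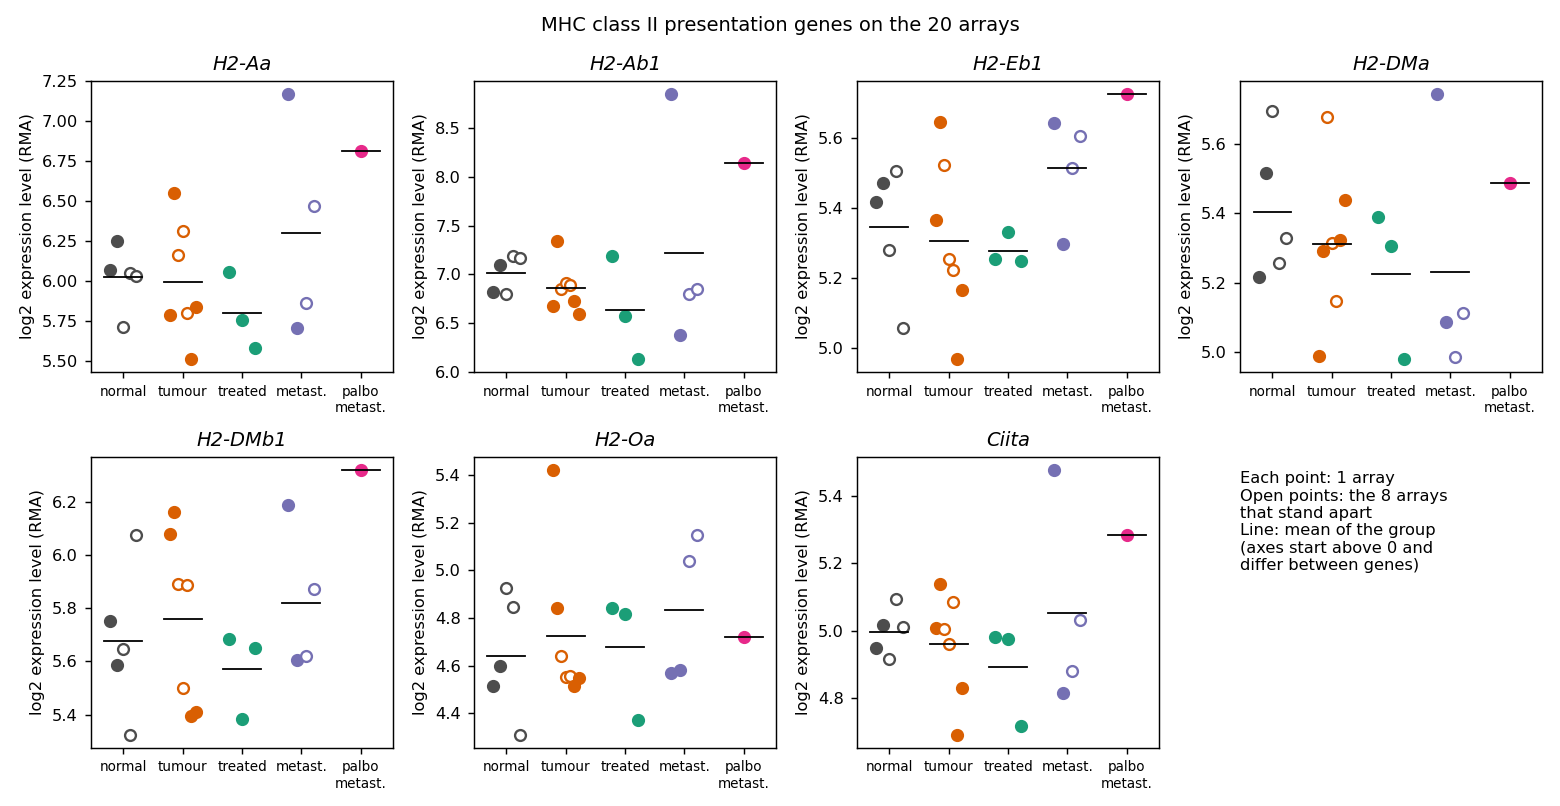
Log2 expression level (RMA) of the 7 measured class II genes on each of the 20 arrays by group; lines are group means, open points are the 8 arrays that stand apart, and each panel has its own axis. Metastasis 1 and the palbo metastasis sit above all other arrays for H2-Aa, H2-Ab1, H2-DMb1 and Ciita, while the other groups overlap.

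H2-Ab1 encodes the beta chain of the I-A molecule, the class II pair that all common mouse strains carry. Its log2 level was 6.82, 7.10, 6.80, 7.19 and 7.17 on the normal bladders. On the tumour bladders it ran from 6.60 over a median of 6.85 to 7.34. It was 7.19, 6.57 and 6.13 on the treated bladders, 8.85, 6.38, 6.80 and 6.85 on the metastases and 8.14 on the palbo metastasis. The bladder groups overlapped, and the metastases held both a value below every normal bladder and the highest value of the series. The order of the group means was metastasis (7.22 ± 1.11, SD, n = 4), normal bladder (7.02 ± 0.19, n = 5), tumour bladder (6.85 ± 0.24, n = 7) and treated bladder (6.63 ± 0.53, n = 3). No neighbours in that order differed beyond their spread.

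H2-Aa encodes the alpha chain of the same molecule. Its log2 level was 6.07, 6.25, 5.71, 6.05 and 6.03 on the normal bladders and 5.51 to 6.55, with a median of 5.84, on the tumour bladders. It was 6.06, 5.76 and 5.58 on the treated bladders, 7.17, 5.71, 5.87 and 6.47 on the metastases and 6.82 on the palbo metastasis. The pattern was that of H2-Ab1: metastasis 1 and the palbo metastasis were the highest arrays, and every other array lay within the range of the bladder groups.

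H2-Eb1, the beta chain of the other class II pair, I-E, was measured at 5.42, 5.47, 5.28, 5.51 and 5.06 on the normal bladders. It ran from 4.97 over a median of 5.26 to 5.65 on the tumour bladders. It was 5.25, 5.33 and 5.25 on the treated bladders, 5.64, 5.30, 5.51 and 5.61 on the metastases and 5.73 on the palbo metastasis. Its range over the 20 arrays was narrow, and all groups overlapped. Class II genes differ between strains, and whether the array's probes match the alleles of FVB/N mice was not tested.

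H2-DMa and H2-DMb1 form H2-M, the peptide editor. H2-DMa was 5.22, 5.52, 5.70, 5.26 and 5.33 on the normal bladders, 4.99 to 5.68 with a median of 5.31 on the tumour bladders, and 5.39, 5.31 and 4.98 on the treated bladders. Metastases 1 to 4 had 5.74, 5.09, 4.98 and 5.11, and the palbo metastasis had 5.49. Metastases 2, 3 and 4 were below every normal bladder, while metastasis 1 was above them all.

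H2-DMb1 was 5.75, 5.59, 5.65, 5.33 and 6.08 on the normal bladders, 5.40 to 6.16 with a median of 5.89 on the tumour bladders, and 5.69, 5.38 and 5.65 on the treated bladders. It was 6.19, 5.60, 5.62 and 5.87 on the metastases and 6.32 on the palbo metastasis. H2-DMb1 and H2-DMb2 are near-identical neighbours, so how the signal divides between their rows is uncertain. The row of H2-DMb2 was also highest on the palbo metastasis (6.44) and next on metastasis 1 (6.36), with all other arrays at or below 6.30.

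H2-Oa, the alpha chain of H2-O, went its own way. It was 4.52, 4.60, 4.93, 4.85 and 4.31 on the normal bladders, 4.52 to 5.42 with a median of 4.56 on the tumour bladders, and 4.84, 4.82 and 4.37 on the treated bladders. It was 4.57, 4.58, 5.04 and 5.15 on the metastases and 4.72 on the palbo metastasis. Here metastasis 1 and the palbo metastasis lay inside the range of the normal bladders, and the highest array was tumour bladder 1.

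Ciita was 4.95, 5.02, 4.92, 5.09 and 5.01 on the normal bladders, 4.69 to 5.14 with a median of 5.004 on the tumour bladders, and 4.98, 4.98 and 4.72 on the treated bladders. It was 5.48, 4.82, 4.88 and 5.03 on the metastases and 5.28 on the palbo metastasis. The normal bladders lay close together (SD of 0.069, n = 5), and only metastasis 1, the palbo metastasis and tumour bladder 2 were above the highest of them. H2-Oa and Ciita have mean levels below 5.10, the level under which the dimmest 40% of all array rows lie, with or without a symbol. They were the 2 members that the alternative without dim genes leaves out.

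**Figure D2:**
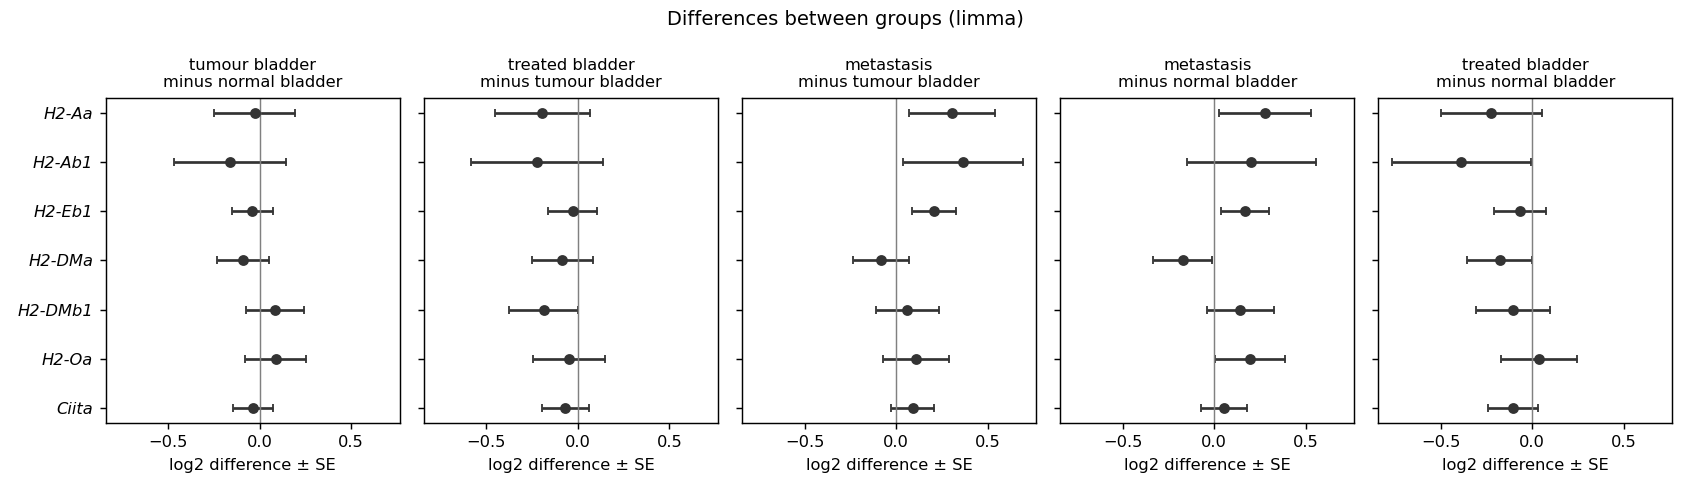
Difference of each class II gene between groups on the log2 scale, as point with its standard error from limma, for the 5 comparisons, where 0 is no difference. All 7 points lie below 0 for treated minus tumour bladder, where H2-Eb1 and H2-Oa turn above 0 under centring or renewed quantile normalization and H2-Ab1, H2-Oa and H2-DMa with array weights, and 6 of 7 above 0 for both metastasis comparisons. None passed the threshold.

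Tumour bladders against normal bladders ask what accompanies tumour formation after Cre. Of the 7 genes, 2 had a higher and 5 a lower mean on the tumour bladders, with differences from -0.16 for H2-Ab1 to 0.086 for H2-Oa and standard errors of 0.11 to 0.31. None of the 7 passed limma's test (smallest Benjamini-Hochberg adjusted p 0.998) and none had an unadjusted p under 0.05. Over all genes, 0% passed after adjustment and 4.25% had an unadjusted p under 0.05. The groups overlapped for every member, as for all but 0.166% of genes. The median difference of the members was -0.038, against 0.012 over all genes. For H2-Ab1, 1 of 7 tumour bladders was above the mean of the normal bladders, and its difference was smaller than its standard error of 0.31. H2-Aa, at -0.028 ± 0.22 (SE), turned to 0.014 after renewed quantile normalization. Macrophage markers had 11 of 12 genes higher on the tumour bladders (median difference 0.25) and smooth muscle markers 8 of 8 lower (median -0.82), none past the threshold. Their part in the class II values was not tested.

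Treated bladders against tumour bladders ask what palbociclib with CDDP does in inoculated bladders. All 7 genes had a lower mean on the treated bladders, by differences of -0.23 for H2-Ab1, -0.19 for H2-Aa, -0.19 for H2-DMb1, -0.086 for H2-DMa, -0.069 for Ciita, -0.048 for H2-Oa and -0.029 for H2-Eb1. Their standard errors were 0.13 to 0.36, so 0 of the 7 passed limma's test, each with a Benjamini-Hochberg adjusted p of 1, and 0 had an unadjusted p under 0.05. Over all genes 0% passed, 0.342% had an unadjusted p under 0.05 and 0.129% did not overlap, and 0 members were without overlap. The median difference was -0.086 for the members and -0.023 over all genes, of which 42.6% were higher. The direction for H2-Ab1, H2-DMa, H2-Oa and Ciita rested on treated bladder 3, the array with the lowest mean over the 7 genes. Without it these genes turned higher and the median difference of the members was 0.018, while H2-Aa, H2-DMb1 and H2-Eb1 stayed lower. Centring every array on its own median moved the median of all genes from -0.023 to 0.036 and turned H2-Eb1 and H2-Oa to 0.030 and 0.011, and renewed quantile normalization turned them to 0.022 and 0.0018. Array weights turned H2-Ab1 to 0.13, H2-Oa to 0.11 and H2-DMa to 0.0038. Marker lists moved beside the class II genes: 12 of 12 macrophage, 12 of 12 dendritic cell, 9 of 9 B cell and 9 of 9 T cell markers had a lower mean on the treated bladders. Their median differences were -0.36, -0.061, -0.14 and -0.14. Of the urothelial markers 10 of 10 had a higher mean (median 0.48), as had 8 of 8 smooth muscle markers (median 0.82). No marker passed the threshold, and their part in the class II values was not tested.

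Against the normal bladders, the treated bladders had a lower mean for 6 of 7 genes and a higher one for H2-Oa (0.038). The largest difference was that of H2-Ab1, at -0.39 with a standard error of 0.38, and it was 0.0336 with array weights. Limma passed 0 of the 7 (adjusted p of 1 by Benjamini-Hochberg) and 0 had an unadjusted p under 0.05, where 0% and 0.358% of all genes did. No member's groups were apart, which was the case for 0.65% of all genes. The median difference was -0.11 for the members and -0.0095 over all genes. Of the markers, 11 of 12 macrophage, 10 of 12 dendritic cell, 8 of 9 B cell and 8 of 9 T cell genes had a lower mean on the treated bladders, and 9 of 10 urothelial genes a higher one. Their median differences were -0.16, -0.11, -0.10, -0.10 and 0.23. None passed, and their part in the class II values was not tested. This comparison shares its treated bladders with the one before, and its normal bladders with that of the tumour bladders.

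Metastases against tumour bladders ask what sets the spread tumour apart from the primary. Here 6 of 7 genes had a higher mean on the metastases, with differences of 0.37 for H2-Ab1, 0.31 for H2-Aa, 0.21 for H2-Eb1, 0.11 for H2-Oa, 0.091 for Ciita and 0.061 for H2-DMb1, while that of H2-DMa was -0.081. None passed: the smallest adjusted p was 0.861 for H2-Eb1 (limma, Benjamini-Hochberg), whose difference had a standard error of 0.12 and an unadjusted p of 0.105. Over all genes 0% passed, 5.79% had an unadjusted p under 0.05 and 0.504% did not overlap, against 0 of the 7 members for each. The median difference was 0.11 for the members and -0.026 over all genes. Macrophage markers had 10 of 12 genes higher on the metastases (median difference 0.62), with 5 at an unadjusted p under 0.05, and B cell markers 2 of 9 (median -0.15). Smooth muscle markers had 8 of 8 genes lower (median -0.68) and urothelial markers 8 of 10 (median -0.61). None passed, and their part in the class II values was not tested.

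Metastases against normal bladders gave the same count, 6 of 7 higher, from 0.28 for H2-Aa and 0.20 for H2-Ab1 to 0.054 for Ciita, with H2-DMa at -0.17. The smallest adjusted p was 0.818, again for H2-Eb1 (limma, Benjamini-Hochberg), and 0 members passed or had an unadjusted p under 0.05, beside 0% and 6.91% of all genes. All members overlapped between the groups, and 2.85% of all genes did not. The median difference was 0.17 for the members and -0.013 over all genes. Of the markers, 11 of 12 macrophage genes had a higher mean on the metastases (median difference 0.64), and 9 of 10 urothelial (median -1.03) and 8 of 8 smooth muscle genes (median -1.60) a lower one. None passed, and their part in the class II values was not tested. Both comparisons share the metastases, so their directions are not separate evidence.

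The higher metastasis means of H2-Ab1 and Ciita in both comparisons, of H2-DMb1 against the tumour bladders and of H2-Aa against the normal bladders rested on metastasis 1. Without it, H2-Ab1 was at -0.18 against the tumour bladders and at -0.34 against the normal bladders, and Ciita was at -0.051 and -0.088. H2-DMb1 was at -0.061 and 0.022 and H2-Aa at 0.019 and -0.0092 without it, while H2-Eb1 stayed higher at 0.17 and 0.13. Without metastasis 1 the median difference of the members was -0.051 against the tumour bladders and -0.0092 against the normal bladders. Metastasis 1 lies outside the set of 8 arrays. Within that set, metastases 3 and 4 gave H2-Ab1 a difference of -0.057 from the tumour bladders and -0.23 from the normal bladders. Urothelial markers did not tell the metastases of that set from its bladders.

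Metastasis 1 and the palbo metastasis are described next, singled out after their values were seen, and with 1 array each they have no test. H2-Ab1 was 1.84 above the mean of the normal bladders on metastasis 1 and 1.12 above it on the palbo metastasis, where the SD of the normal bladders was 0.19. H2-Aa was 1.15 and 0.79 above that mean. For H2-DMb1 the distances were 0.51 and 0.64, and for Ciita 0.48 and 0.29.

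Both arrays were the 2 highest of the 20 for H2-Ab1, H2-Aa, H2-DMb1 and Ciita, 4 of the 7 genes, as they were for 1.14% of all genes. Metastasis 1 was above every normal bladder for 6 of the 7 genes (20.9% of all genes) and the palbo metastasis for 5 (21.3%). Both at the same time were so for 5 of the 7, all but H2-DMa and H2-Oa, and for 5.36% of all genes. The highest of the other 18 arrays was tumour bladder 2 for H2-Ab1 (7.34), H2-Aa (6.55) and Ciita (5.14).

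The row that the annotation gives to Cd74 and Mir5107 together followed the I-A chains. It was 7.25, 7.38, 7.07, 7.49 and 7.18 on the normal bladders, 5.99 to 7.48 with a median of 7.04 on the tumour bladders, and 7.12, 6.11 and 5.72 on the treated bladders. It was 10.88, 5.34, 6.61 and 6.96 on the metastases and 9.40 on the palbo metastasis. Metastasis 1 was 3.60 and the palbo metastasis 2.13 above the normal mean, and metastasis 2 was the lowest array of all. When this row was added to the genes tested, its difference was -0.32 ± 0.62 (SE) for tumour against normal bladder and -0.64 ± 0.73 for treated against tumour bladder. For metastasis against tumour bladder it was 0.49 ± 0.66. None of these passed, with limma's Benjamini-Hochberg adjusted p at 0.998, 1 and 0.93. Against normal bladder the row's difference was -0.96 ± 0.77 (SE) for treated bladder and 0.17 ± 0.71 for metastasis, and neither passed.

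The 7 genes differed in how much they varied over the arrays. The SD over the 20 arrays was 0.60 for H2-Ab1, more than that of 93.68% of all genes, and 0.42 for H2-Aa, more than that of 81.51%. It was 0.30 for H2-DMb1, 0.27 for H2-Oa, 0.23 for H2-DMa, 0.20 for H2-Eb1 and 0.18 for Ciita, where the median gene had 0.27. On the 8 arrays that stood apart, H2-Ab1 had an SD of 0.16 and on the other 12 an SD of 0.77. The wide spread of H2-Ab1 was thus that of the 12 arrays, which include metastasis 1 and the palbo metastasis.

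**Figure D3:**
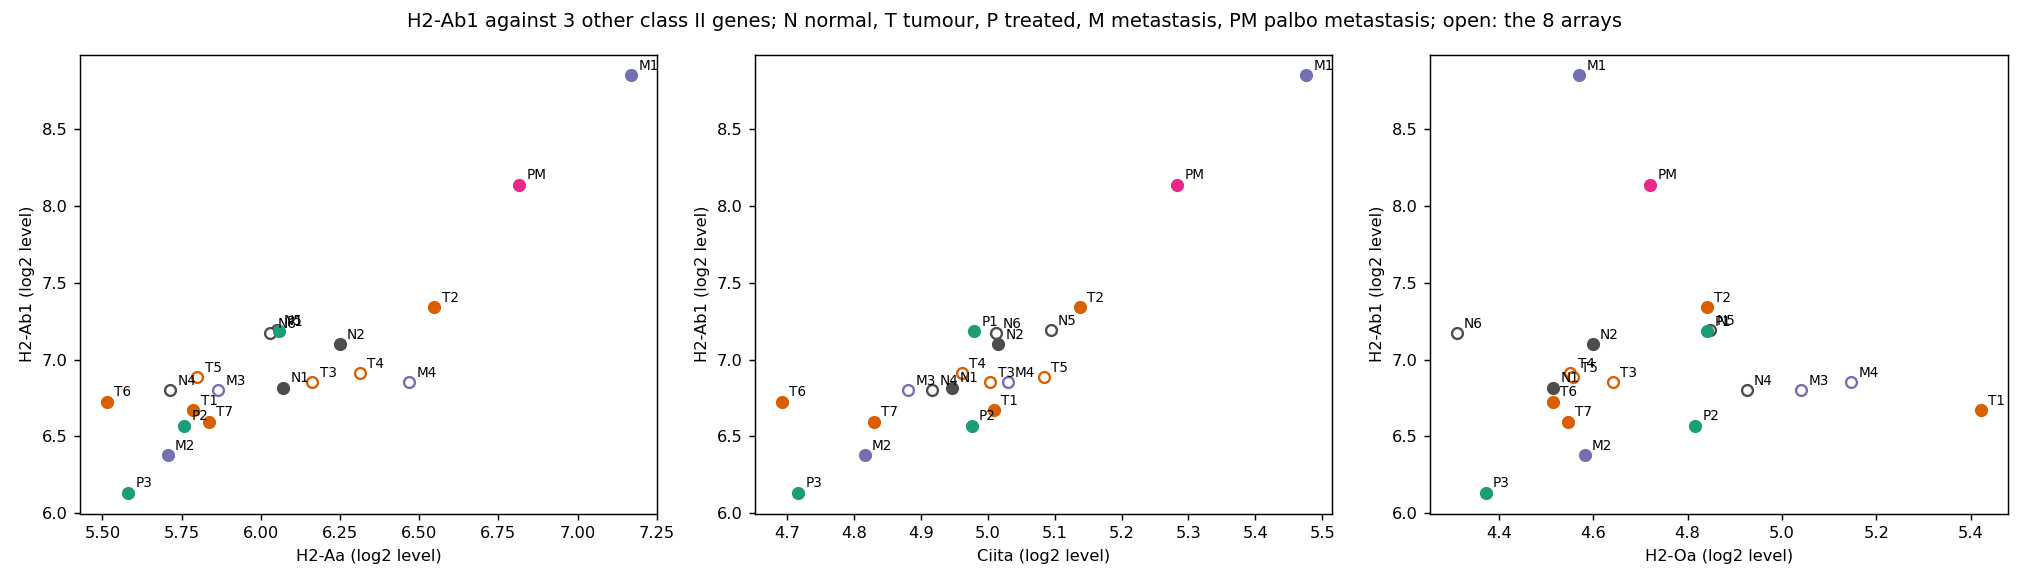
Log2 level of H2-Ab1 on the vertical axis against H2-Aa, Ciita and H2-Oa on the horizontal axes, each point 1 of the 20 arrays (N normal, T tumour, P treated, M metastasis, PM palbo metastasis; open points the 8 arrays that stand apart). H2-Ab1 ran with H2-Aa and Ciita across the arrays and showed no order with H2-Oa.

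Across arrays the I-A chains and Ciita ran together. Pearson's r between H2-Ab1 and H2-Aa was 0.88 over the 20 arrays (Spearman's rho 0.81), and 0.69 over the 18 without metastasis 1 and the palbo metastasis. Between H2-Ab1 and Ciita it was 0.90 (rho 0.83) and 0.75 over the 18, and between H2-Aa and Ciita 0.87 (rho 0.75) and 0.71. These correlations are descriptions with no test, since the arrays belong to 5 groups and share their normalization.

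The remaining members followed less closely. H2-Eb1 correlated with H2-Aa at 0.74 and with H2-Ab1 at 0.55, which became 0.66 and 0.29 over the 18 arrays. The chains of H2-M correlated with each other at 0.15 (rho 0.12) and at -0.14 over the 18 arrays. H2-Oa correlated with H2-Ab1 at -0.04 (rho 0.11), and its highest value with any member was 0.41, with H2-Eb1. The shared row of Cd74 and Mir5107 correlated with H2-Ab1 at 0.95 (rho 0.80) and at 0.80 over the 18 arrays.

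The 10 other genes whose levels ran most like the mean of the 7 members over the 20 arrays were Cd180, E230029C05Rik, Ly9, Xlr4e-ps, Fli1, Tbxas1, Adgre4, Itga4, 5430437J10Rik and Fxyd2, with r from 0.86 to 0.83. Cd180 is a Toll-like surface protein of B cells and macrophages, Ly9 a SLAM-family receptor of lymphocytes, and Adgre4 a receptor of myeloid cells. Itga4 is the alpha4 integrin chain of leukocytes. Cd180 was 6.60 on metastasis 1 and 6.46 on the palbo metastasis, with all other arrays at or below 5.92. Over the 18 arrays without that pair the r of these 10 genes was 0.46 to 0.64. Over all genes the median r was 0.036, and 2.64% had an r over 0.5 across the 20 arrays. Over the 12 arrays outside the set of 8 the order changed, with Ptpn7 (r of 0.95) in place 1 and the class II alpha chain gene H2-Ea (r of 0.94), listed in RefSeq as a transcribed pseudogene, in place 4.

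The partners of the class II pathway were taken as 13 genes: the further chains H2-Ob, H2-DMb2, H2-Eb2 and H2-Ea, the endosomal proteins Ctss, Ctsl, Lgmn and Ifi30, the costimulators Cd80, Cd86 and Cd40, and the ubiquitin ligases Marchf1 and Marchf8. None passed limma's test in any of the 5 comparisons. On the metastases 9 of 13 had a higher mean than on the tumour bladders and 10 of 13 than on the normal bladders. Of the 13, 2 and 5 had an unadjusted p under 0.05, beside 5.79% and 6.91% of all genes. On the treated bladders 11 of 13 were lower than on the tumour bladders and 11 of 13 lower than on the normal bladders, with 0 at an unadjusted p under 0.05 in either.

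Cathepsin S (Ctss), which cuts the invariant chain in antigen-presenting cells, was 6.91 ± 1.19 (SD, n = 4) on the metastases and 5.53 ± 0.84 (n = 5) on the normal bladders. That difference of 1.38 ± 0.51 (SE) had an adjusted p of 0.72 (limma, Benjamini-Hochberg). Cd80, which gives T cells their second signal through Cd28, was 5.36 ± 0.58 and 4.79 ± 0.16 in the same groups, with an adjusted p of 0.72. Cathepsin L (Ctsl) was 7.79 ± 1.29 on the metastases and 6.55 ± 0.67 (n = 7) on the tumour bladders, with an adjusted p of 0.841. H2-Eb2 went the other way, 4.71 ± 0.057 on the metastases and 5.02 ± 0.24 on the tumour bladders, with an adjusted p of 0.856.

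Cd80, Ctss, Cd86 and H2-Ob had the smallest p among the partners in the bladder comparisons. Cd80 was 5.18 ± 0.29 (SD, n = 7) and Ctss 5.95 ± 0.62 on the tumour bladders, with adjusted p of 0.998 against the normal bladders (limma, Benjamini-Hochberg). On the treated bladders Ctss was 5.36 ± 0.68 (n = 3) and the costimulator Cd86 5.88 ± 0.085. Cd86 was 6.24 ± 0.35 on the tumour bladders and 6.16 ± 0.42 on the normal bladders. H2-Ob, the beta chain of H2-O, was 5.63 ± 0.089 on the treated and 5.73 ± 0.083 on the normal bladders.

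The partners divided by array. Ifi30, the thiol reductase that unfolds antigen, was 9.50 on metastasis 1 and 8.15 on the palbo metastasis, and Cd86 was 7.69 and 7.55, each above all other arrays. Ctss was 7.99 and 7.94 on that pair, and 7.91 on metastasis 2, which had low class II levels. The proteases Lgmn (10.64) and Ctsl (9.60) had their highest values on metastasis 2.

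The transcription factors of the class II genes were taken as 10 measured genes: the RFX subunits Rfx5, Rfxap and Rfxank, the NF-Y subunits Nfya, Nfyb and Nfyc, Creb1, Irf1, Irf8 and Prdm1. Nlrc5 and Spi1 had no row of their own. None passed in any comparison. Irf8, a factor of myeloid and B cells, was 6.35 ± 0.23 (SD, n = 4) on the metastases, 5.84 ± 0.085 (n = 5) on the normal bladders and 5.99 ± 0.17 (n = 7) on the tumour bladders. Its difference of 0.52 ± 0.12 (SE) from the normal bladders held for 4 of 4 metastases, all above the highest normal bladder, with an unadjusted p of 0.000391 and an adjusted p of 0.717 (limma, Benjamini-Hochberg). Between these groups 2.85% of all genes did not overlap and 6.91% had an unadjusted p under 0.05. Irf8 is named for having the smallest p of its list. Its difference from the tumour bladders was 0.37 ± 0.11 (SE) with an adjusted p of 0.841 (limma, Benjamini-Hochberg). Rfxap was 5.60 ± 0.20 on the metastases and 5.86 ± 0.30 on the normal bladders (adjusted p 0.789, limma, Benjamini-Hochberg). Prdm1, a repressor of Ciita in plasma cells, was 4.91 ± 0.13 on the normal, 5.04 ± 0.22 on the tumour and 4.90 ± 0.060 on the treated bladders and 4.91 ± 0.066 on the metastases. On the treated bladders Irf8 was 5.80 ± 0.13 (n = 3). Irf1, an interferon-induced factor, was 5.72 ± 0.12 there and 5.88 ± 0.16 on the normal bladders. Rfx5, a subunit of RFX, was 5.89 ± 0.061 and 5.93 ± 0.085 in the same groups and within 5.75 to 6.23 on every array.

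Of the interferon-gamma pathway, 10 genes were measured, and none passed. The ligand Ifng was 4.44 ± 0.12 (SD, n = 4) on the metastases, 4.85 ± 0.28 (n = 7) on the tumour bladders and 4.88 ± 0.28 (n = 5) on the normal bladders, and 0 of 4 metastases were above either mean. Its differences of -0.41 ± 0.15 and -0.44 ± 0.16 (SE) had adjusted p of 0.841 and 0.72 (limma, Benjamini-Hochberg). The target chemokine Cxcl10 was 5.27 ± 0.43 on the tumour bladders and 4.76 ± 0.14 on the normal bladders, with 6 of 7 tumour bladders above every normal bladder and an adjusted p of 0.998. On the metastases Cxcl10 was 5.21 ± 0.090, all 4 above every normal bladder, with an adjusted p of 0.72 (limma, Benjamini-Hochberg). Of all genes 2.85% did not overlap between these groups. On the treated bladders Cxcl10 was 4.92 ± 0.32 (n = 3) and Ifng 4.62 ± 0.10. The kinases behind the receptor gave 7.06 ± 0.37 for Jak1 on the metastases and 6.69 ± 0.46 on the tumour bladders, and 6.47 ± 0.25 for Jak2 on the tumour and 6.60 ± 0.17 on the normal bladders. The induced GTPase Gbp3 was 5.86 ± 0.16 on the treated and 5.98 ± 0.078 on the normal bladders. Cxcl9, another such target, was highest on metastasis 1 (7.07), then on tumour bladder 6 (6.64) and the palbo metastasis (6.51).

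The class I pathway, which shows peptides from inside the cell, was taken as 10 genes, all measured. None passed. On the metastases 5 of 10 had a higher mean than on the tumour bladders and 7 of 10 than on the normal bladders. The class I heavy chain H2-D1 was 8.25 ± 0.72 (SD, n = 4) on the metastases and 7.63 ± 0.26 (n = 5) on the normal bladders (adjusted p 0.721, limma, Benjamini-Hochberg). H2-K1 was 8.17 ± 0.60 and 7.59 ± 0.40 in the same groups (adjusted p 0.73), and 7.68 ± 0.48 on the tumour bladders. B2m, the light chain of class I, was 13.59 ± 0.51 on the metastases and 12.18 ± 1.63 (n = 7) on the tumour bladders, a difference of 1.41 ± 0.79 (SE) with an adjusted p of 0.861 (limma, Benjamini-Hochberg). All 4 metastases were above the tumour mean and 1 was above every tumour bladder.

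The class I genes with the smallest p in the bladder comparisons were the peptide transporter chains Tap1 and Tap2, the immunoproteasome subunits Psmb9 and Psmb10 and the trimming peptidase Erap1. Tap1 was 6.01 ± 0.27 (SD, n = 7) on the tumour and 5.83 ± 0.12 (n = 5) on the normal bladders. Tap2 was 5.62 ± 0.15 on the tumour, 5.49 ± 0.15 on the normal and 5.46 ± 0.028 (n = 3) on the treated bladders. Psmb9 was 5.46 ± 0.044 on the treated and 5.65 ± 0.18 on the tumour bladders. Erap1 was 6.72 ± 0.18 on the treated and 6.90 ± 0.13 on the normal bladders, and Psmb10 was 5.95 ± 0.077 and 6.04 ± 0.24. On metastasis 1 and the palbo metastasis H2-K1 was 9.03 and 8.87 and H2-D1 was 9.31 and 9.02, the 2 highest arrays for both genes.

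**Figure D4:**
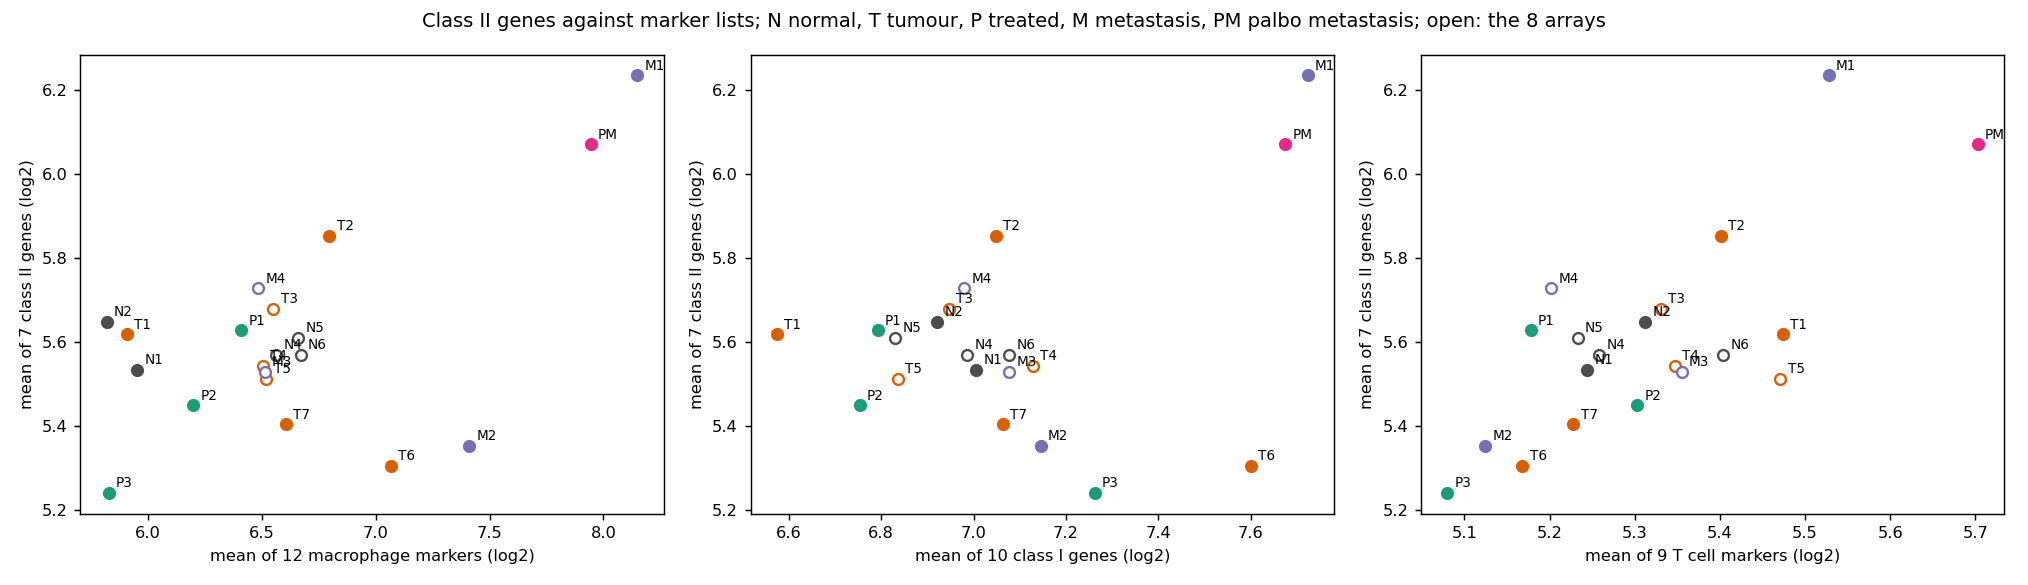
Mean log2 level of the 7 class II genes on the vertical axis against the mean of 12 macrophage markers, 10 class I genes and 9 T cell markers, each point 1 of the 20 arrays (letters and open points as in the plot of H2-Ab1). Metastasis 1 and the palbo metastasis are high on every axis, while metastasis 2 and tumour bladder 6 are high in macrophage markers and low in class II genes. Between the class I and class II means r was 0.35 (rho -0.10) over the 20 arrays. It was -0.52 (rho -0.51) without metastasis 1 and the palbo metastasis. The class I mean includes B2m, which ran from 9.61 to 14.7 over the 20 arrays.

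Macrophage markers moved with the class II genes on metastasis 1 and the palbo metastasis. All 12 markers of the list were above every normal bladder on both arrays, as were 5.36% of all genes. The mean of the list was 8.15 and 7.95 on them. It was 5.82 to 6.67 on the normal bladders, 5.91 to 7.07 on the tumour bladders, 5.83 to 6.41 on the treated bladders and 6.48 to 8.15 on the metastases. Lyz2 (12.87 and 12.84) and Mrc1 (9.39 and 8.83) were their brightest markers by mean level over all arrays. The list had 11 of 12 genes higher on the metastases than on the normal bladders, none past the threshold and 8 at an unadjusted p under 0.05. Such a p was reached by 6.91% of all genes. The part of macrophages in the class II levels was not tested.

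Metastasis 2 and tumour bladder 6 had high macrophage markers without high class II genes. The macrophage mean was 7.41 on metastasis 2 and 7.07 on tumour bladder 6, ranks 3 and 4 of the 20. On them 9 and 8 of the 12 markers were above every normal bladder, beside 17.9% and 20.9% of all genes. The mean of the 7 class II genes was 5.35 and 5.31 on these arrays, ranks 18 and 19. On each of them 4 of the 7 genes lay below every normal bladder and 0 above, where 17.8% and 28.2% of all genes lay below. Lyz2 was 12.77 on metastasis 2 and 12.87 on metastasis 1, while Mrc1 was 8.08 and 9.39 and C1qb 8.24 and 10.69, so the list's mean was lower on metastasis 2 than on metastasis 1 (7.41 and 8.15). Metastasis 2 and tumour bladder 6 were also singled out after their values were seen.

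Tumour bladder 6 was high in class I and interferon genes as well. Its class I mean was 7.60, rank 3 after metastasis 1 (7.72) and the palbo metastasis (7.68), and its interferon-gamma list mean of 6.31 was rank 1. Ciita was at 4.69 there, the lowest of the 20 arrays. Treated bladder 3 had the lowest class II mean of all, 5.24, with 4 of 7 genes below every normal bladder beside 28.8% of all genes. Its class I mean was 7.26, rank 4, and its macrophage mean was 5.83, rank 19. That class I mean includes B2m at 14.7, the highest of the 20 arrays for a gene that ran from 9.61 to 14.7. H2-K1 (7.79) and H2-D1 (7.77) lay within the range of the normal bladders there, and Tap1 (6.08) above it.

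The mean of the T cell markers correlated with the class II mean at r of 0.74 over the 20 arrays (rho 0.56), and at 0.53 (rho 0.40) over the 18 without metastasis 1 and the palbo metastasis. The B cell mean did so at 0.54 (rho 0.58) over the 20 arrays. The mean of the 9 T cell markers was 5.53 on metastasis 1 and 5.70 on the palbo metastasis, 5.23 to 5.40 on the normal bladders and 5.17 to 5.47 on the tumour bladders. It was 5.08 to 5.30 on the treated bladders and 5.12 to 5.53 on the metastases. On the palbo metastasis 7 of the 9 markers were above every normal bladder, on metastasis 1 it was 3, Cd3g, Cd8a and Il7r. The shares of all genes so placed were 21.3% and 20.9%. The brightest markers of this list were Cd3g, at 6.94 on metastasis 1 and 6.76 on the palbo metastasis, and Cd5, at 5.45 and 5.60. The macrophage mean correlated with the class II mean at 0.58 (rho 0.19), and at -0.09 without that pair of metastases. Their part in the class II levels was not tested.

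The means of B cell and dendritic cell markers divided the pair, while single markers differed. The brightest B cell markers were Cd79a (5.16 on metastasis 1 and 5.35 on the palbo metastasis) and Blk (4.92 and 5.33). For dendritic cells they were Siglech (6.23 and 6.39) and Clec10a (6.37 and 6.21). On both arrays 1 of 9 B cell markers, Bank1 (5.54 and 5.38), was above every normal bladder. Of 12 dendritic cell markers 2 were, Clec10a and Itgax (5.915 and 5.784), beside 5.36% of all genes. The mean of 9 B cell markers was 5.35 on the palbo metastasis, rank 3, and 5.03 on metastasis 1, rank 15, where the normal bladders had 5.01 to 5.21. The mean of 12 dendritic cell markers was 5.78 on the palbo metastasis, rank 1, and 5.51 on metastasis 1, rank 13, and 5.55 to 5.65 on the normal bladders. Across groups the B cell mean was 4.84 to 5.45 on the tumour bladders, 4.84 to 5.11 on the treated bladders and 4.95 to 5.10 on the metastases. The dendritic cell mean was 5.41 to 5.68, 5.37 to 5.54 and 5.37 to 5.60 on them. Over the 18 arrays without the pair, the class II mean correlated with the B cell mean at 0.78 (rho 0.67) and with the dendritic cell mean at 0.50 (rho 0.40).

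Tumour bladder 2, the array with the next highest class II mean after the pair (5.85), had the highest B cell mean (5.45) and the next highest dendritic cell mean (5.68). Its B cell marker Ms4a1 was 5.73, the highest of the 20 arrays. Of the 7 class II genes 5 lay above every normal bladder on it, beside 21.4% of all genes. The part of B cells and dendritic cells in these levels was not tested. No marker was at 0, since the lowest value of any listed leukocyte marker was 4.31, and on an array a dim level cannot be read as absence.

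Urothelial and smooth muscle markers were low on metastasis 1 and the palbo metastasis, and also on arrays with low class II genes. None of the 10 urothelial and 8 smooth muscle markers was above every normal bladder on metastasis 1 or the palbo metastasis. Of all genes 20.9% and 21.3% were. Acta2 (6.18 and 4.58) and Tagln (5.84 and 5.21) were the brightest smooth muscle markers. The smooth muscle mean was 5.57 and 4.996 on that pair and 6.79 to 8.77 on the normal bladders. It was 5.56 to 9.75 on the tumour bladders, 6.74 to 8.49 on the treated bladders and 5.57 to 6.77 on the metastases. Tumour bladder 6, with its class II mean at rank 19, had a urothelial mean of 5.52 and a smooth muscle mean of 5.56. Metastasis 2, with its class II mean at rank 18, had 6.34 and 5.68. The class II mean correlated with the urothelial mean at -0.53 (rho -0.34) and with the smooth muscle mean at -0.47 (rho -0.38), and at -0.21 and -0.23 over the 18 arrays. The part of tissue makeup in the class II levels was not tested.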

How the data were processed

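Per the labels' protocols, RNA came out of paraffin-embedded tissue by an FFPE extraction kit, and was converted to biotinylated sense-strand DNA and hybridised. The authors deposited log2 values; the submitters' processing notes name RMA and Affymetrix Expression Console; versions and genome build are not given in the sources used here. Of 65956 rows, 30604 have 1 gene symbol in the platform annotation, 2146 have several and 33206 none; 827 old symbols were updated through RefSeq. The row with the highest mean stood for the 355 genes with several, giving 30142 genes.

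Group differences were fitted with limma 3.58.1 (lmFit and eBayes, R 4.3.3) over all 20 arrays, the palbo metastasis as an untested group, with Benjamini-Hochberg adjustment over all genes and a threshold of 0.05. The fit was also run on simulated data, with independent noise that was alike on every array. Those data lack the set of 8 arrays, so they cannot show how the fit performs on these arrays. Alternatives were: only the groups compared, array weights, another variance prior, no dim genes, renewed quantile normalization, median centring, the replicate number as a block, the set of 8 arrays left out, alone or as a term, the mean of a gene's rows, each array left out, and, added after seeing the data, the row of Cd74 and Mir5107. A further alternative, for the metastasis comparisons, counted the palbo metastasis as a metastasis. Same-numbered arrays were not treated as pairs: of 20 such pairs 1 correlated above 0.1. That cannot show whether any come from the same mouse, which the labels do not give.

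The members and lists were chosen with earlier results of these data known. Named are the members; in pathway lists the genes that pass and otherwise the 2 with the smallest p per comparison; the 2 brightest markers of each marker list described; and the 10 genes most like the members. Genes named by array were chosen after their values were seen. The names of the other floxed alleles are not reported here.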

Additional observations from a re-analysis of the deposited data

Results flagged for a closer look

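On 3 occasions an array stood far from the others of its group. H2-Ab1 on tumour bladder 2 was 7.34, with the other tumour bladders at 6.60 to 6.91. H2-Oa on tumour bladder 1 was 5.42, with the others at 4.52 to 4.84. H2-DMa on metastasis 1 was 5.74, with the other metastases at 4.98 to 5.11. Of 21 combinations of a gene and a group looked at, 3 held such an array, and chance sets apart about 1 in 20. The genes share their arrays, so these are not 21 separate checks.

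The palbo metastasis, counted as a metastasis in an alternative fit and otherwise in no comparison, was above every normal bladder for 5 genes. H2-Ab1 was 8.14 on it (normal bladders 6.80 to 7.19), H2-Aa 6.82 (5.71 to 6.25), H2-Eb1 5.73 (5.06 to 5.51), H2-DMb1 6.32 (5.33 to 6.08) and Ciita 5.28 (4.92 to 5.09). It is a single array, and 21.3% of all genes were above every normal bladder on it.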

How the results depend on the processing

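Under the alternatives 51 of 760 member differences turned direction, 25 of them among the 350 with 1 array left out, and none passed the threshold (smallest adjusted p 0.561, limma, Benjamini-Hochberg). Of all genes, 3 passed for metastasis against tumour bladder and 3 for metastasis against normal bladder without the 8 arrays, and 1 for the latter with only the 2 groups in the fit. The differences that turned follow by comparison. The causes were not tested. Tumour against normal bladder: H2-Aa was 0.000225 with array weights, 0.014 after renewed quantile normalization, 0.022 with the replicate block and 0.16 within the 8 arrays; H2-Eb1 and H2-Oa were 0.052 and -0.11 within them; Ciita was 0.0040 with the block and 0.0084 within them. Treated against tumour bladder: array weights, which gave treated bladder 1 a weight of 4.95, gave 0.13 for H2-Ab1, 0.0038 for H2-DMa and 0.11 for H2-Oa; quantile normalization gave 0.022 for H2-Eb1 and 0.0018 for H2-Oa; centring gave 0.030 and 0.011. Metastasis against tumour bladder: within the 8 arrays H2-Ab1 was -0.057, H2-DMb1 -0.012 and Ciita -0.061; without them H2-DMa was 0.15 and H2-Oa -0.26; H2-DMb1 was -0.012 with array weights and -0.038 with the block. Metastasis against normal bladder: H2-Ab1 was -0.23 and Ciita -0.0523 within the 8 arrays, and H2-DMa 0.048 without them. Treated against normal bladder: H2-Ab1 was 0.0336 with array weights. With 1 array left out, turns came in tumour against normal bladder from leaving out tumour bladder 6 (H2-Aa, H2-Eb1, Ciita), 1 (H2-Aa, H2-Oa) or 5 (H2-Aa) or normal bladder 2 (H2-Aa) or 5 (H2-DMb1). In treated against tumour bladder they came from leaving out treated bladder 3 (H2-Ab1, H2-DMa, H2-Oa, Ciita), tumour bladder 2 or 3 (H2-Eb1) or 1 (H2-Oa). In the metastasis comparisons they came from metastasis 1 (H2-Ab1, H2-Aa, H2-DMb1, Ciita) or 3 (H2-DMa), and in treated against normal bladder from treated bladder 1 or 2 or normal bladder 6 (H2-Oa). The values ran for tumour against normal bladder from -0.12 to 0.052 for H2-Aa, -0.11 to 0.016 for H2-Eb1, -0.0050 to 0.18 for H2-DMb1, -0.030 to 0.16 for H2-Oa and -0.067 to 0.0070 for Ciita. Treated against tumour bladder ran from -0.50 to 0.024 for H2-Ab1, -0.086 to 0.027 for H2-Eb1, -0.17 to 0.037 for H2-DMa, -0.13 to 0.10 for H2-Oa and -0.11 to 0.018 for Ciita. Metastasis against tumour bladder ran from -0.18 to 0.65 for H2-Ab1, -0.25 to 0.0018 for H2-DMa, -0.061 to 0.13 for H2-DMb1 and -0.051 to 0.17 for Ciita. Metastasis against normal bladder ran from -0.34 to 0.48 for H2-Ab1, -0.0092 to 0.48 for H2-Aa and -0.088 to 0.13 for Ciita, and treated against normal bladder from -0.045 to 0.19 for H2-Oa. The 8 arrays hold no treated bladder, so no value within them exists for the treated groups.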
